A study of Canis lupus familiaris with 5 samples.

Results

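The genes CST3 and TIMP3, which encode the protease inhibitors cystatin C and tissue inhibitor of metalloproteinases 3, were followed in failing and control dog heart muscle. They are 2 of the 2416 genes that had a probe set with a single gene symbol, and 3 of the 3724 such probe sets belonged to them, 2 to CST3 and 1 to TIMP3. The probe sets were taken by gene symbol, but the 2 genes themselves were chosen from intensities of this same comparison, in which a CST3 probe set had passed the test and TIMP3 had stood below 0 in control and above it in failing myocardium. Their differences between the groups are therefore given as a description, without a test. RNA from canine myocardium was hybridised to 5 arrays, 2 labelled as control (1a and 2a) and 3 as failing (1a, 1b and 2a), in a study of congestive heart failure. For 4 arrays the labels state that RNA of 3 dogs was pooled before cRNA synthesis, and for control 1a they state no pool. Breed, age, the way heart failure arose, the part of the heart and whether failing 1a and 1b came from separate pools are not given in the sources used here, so p-values reflect the spread between arrays alone, part of which may be technical.

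Cystatin C is a small secreted protein that binds and blocks cysteine proteases, among them the lysosomal cathepsins B, H, L, S and K, and legumain through a separate site. It is made by most cell types and is best known as a blood marker of kidney filtration. TIMP3 is a secreted inhibitor that stays bound to the extracellular matrix, where it blocks matrix metalloproteinases and several ADAM and ADAMTS proteases, including ADAM17, the enzyme that releases tumor necrosis factor from the cell surface. In the heart both families take part in the turnover of the collagen matrix.

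Each value is the deposited linear intensity of a probe set on an array, a set of short probes that reports on a transcript. Values below 0 occurred on every array, in 34.7% to 39.9% of all probe sets, and a value below 0 gives no measurable level of the transcript. The gene symbols are those of human genes, while the RNA came from dogs, and how well the probes match dog CST3 and TIMP3 was not tested. The RefSeq annotation of the dog assembly UU_Cfam_GSD_1.0 held 0 entries under the symbol CST3. In it, TIMP3 lies within the span of SYN3. The probe sets of the table included 0 for SYN3.

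The CST3 probe set HSPD4314_r_at read −3579 and −4169 on control 1a and 2a. On failing 1a, 1b and 2a it read 7543, 4991 and 8347. Both control arrays thus lay far below 0 and all failing arrays far above it, and the groups did not overlap. The means were −3874 ± 418 (SD, n = 2) in control and 6960 ± 1752 (SD, n = 3) in failing myocardium, a difference of 10834 intensity units. The gap between the highest control and the lowest failing value was 8570, against a range of 591 between the control arrays and 3356 among the failing arrays. No fold change is given, because the control values have no logarithm. With every value raised to a floor of 20, the log2 difference was 8.41, but this size is set by the floor, and it was 6.09 with a floor of 100 and 10.41 with a floor of 5.

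The other CST3 probe set, HSPD4314_f_at, ran the opposite way. It read 2065 and 1640 on control 1a and 2a, and 1173, 610 and −4.39 on failing 1a, 1b and 2a. All failing values lay below both control values, with failing 1a nearest to the control arrays and failing 2a at about 0. The means were 1853 ± 300 (SD, n = 2) in control and 593 ± 589 (SD, n = 3) in failing myocardium. The gap between the groups, 468, was close to the range of the control arrays, 425, and smaller than the range of the failing arrays, 1177. The log2 difference with the floor of 20 was −2.92, and it was −1.12 without failing 2a, the array at the floor. The direction of CST3 thus differed between its probe sets, and the data do not give a single direction for the gene.

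TIMP3 was read by a single probe set, HSPD26711_r_at, with −2645 and −3618 on control 1a and 2a. It read 2732, 88.3 and 2192 on failing 1a, 1b and 2a. Failing 1a and 2a were well above 0, failing 1b was just above it, and both control arrays were far below. The means were −3132 ± 688 (SD, n = 2) and 1671 ± 1397 (SD, n = 3), a difference of 4802 intensity units. The gap between the groups was 2733, about as wide as the range of 2643 among the failing arrays. That range lay mainly between failing 1a and failing 1b, which differed less from each other over all tested probe sets than any other pair of arrays. The log2 difference was 5.34 with the floor of 20, 3.08 with a floor of 100 and 7.34 with a floor of 5, so here too the floor sets its size.

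**Figure D1:**
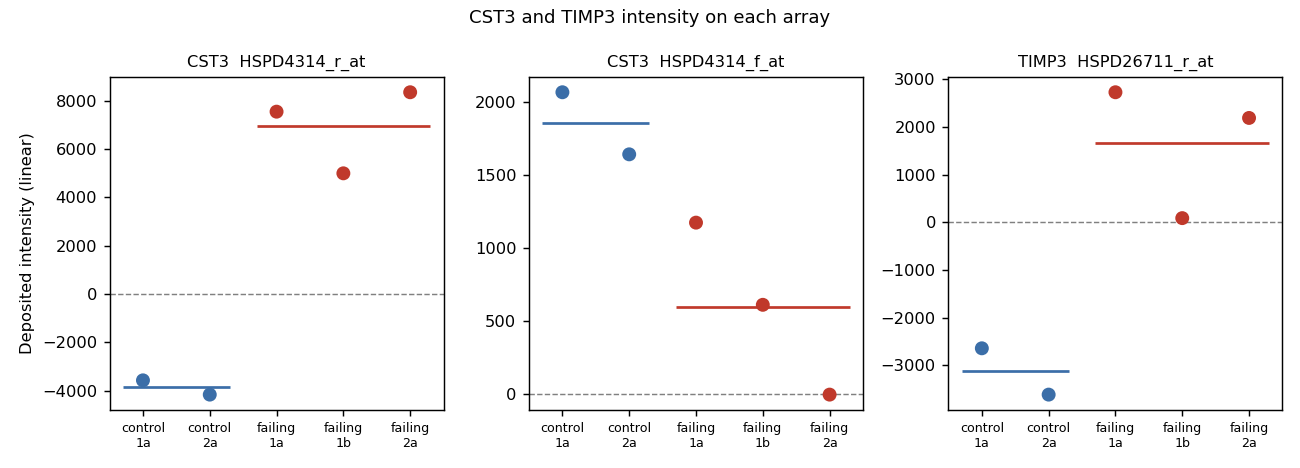
Linear intensity of the 3 probe sets of CST3 and TIMP3 on each array, with blue points for the 2 control arrays, red points for the 3 failing arrays, horizontal lines for group means and a dashed line at 0. HSPD4314_r_at and HSPD26711_r_at lie below 0 on both control arrays and above 0 on all failing arrays, while HSPD4314_f_at lies lower on all failing arrays.

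The 2 CST3 probe sets carry the same base name and differ in its ending, and the TIMP3 probe set shares the ending r with the brighter-in-failing CST3 set. The table holds control probe sets with the AFFX prefix of Affymetrix. In the naming of that maker, an ending in r marks a set for which some probe selection rules were relaxed and an ending in f marks probes that may match a family of related sequences. HSPD4314_f_at, HSPD4314_r_at and the TIMP3 set HSPD26711_r_at are therefore uncertain where related transcripts could bind.

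Read against all 4601 probe sets other than array controls, 2 of the 3 probe sets of CST3 and TIMP3 lay above control on all failing arrays, as did 602 of all (13.1%). The other lay below control on all failing arrays, as did 618 (13.4%). The same 2 were below 0 on both control arrays and above 0 on all failing arrays, as were 46 of all probe sets (1%), while 61 (1.33%) made the opposite change. These shares are given as background only, since the comparison had served to choose the genes.

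Among the 46 probe sets that went from below to above 0, the 5 with the widest gap between the highest control and the lowest failing value were HSPD4314_r_at of CST3, the TIMP3 probe set, HSPD24906_r_at of the ATP synthase subunit gene ATP5F1D, HSPD1328_r_at of the taste receptor gene TAS1R3 and HSPD20902_r_at, which has no gene symbol. Neither their order nor a place among the 5 is read as a result. Values below 0 give no level, and intensities of different probes are not comparable. CST3 and TIMP3 were also chosen from this comparison, so their place among the 5 adds no evidence. All 5 had names ending in r, an ending borne by 8 of the 46 and by 612 of the 4601 probe sets. Over all sets with that ending, 1.31% went upward through 0 and 1.31% downward. Below −1000 on both control arrays were 254 probe sets, of which 115 ended in r. Of the 254, 212 were below 0 on all failing arrays as well, and 6 (2.36%) were above 0 on all of them, 5 of these ending in r. In the opposite direction, 240 were below −1000 on all failing arrays, and 5 (2.08%) of these were above 0 on both control arrays. Of the 240, 97 ended in r, as did all 5 that were above 0 in control. Readings below −1000 throughout 1 group were thus mostly below 0 throughout the other. HSPD4314_r_at of CST3 and the TIMP3 set were among the 6 that were above 0 on all failing arrays. Since the genes were chosen from this comparison, that place adds no evidence. What part the choice of probes has in these readings was not tested.

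**Figure D2:**
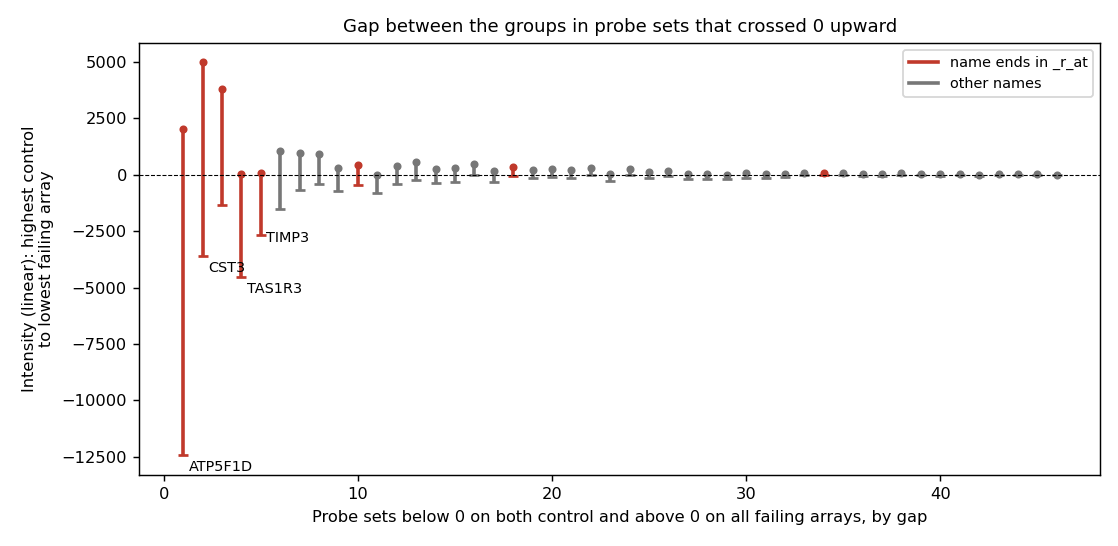
The 46 probe sets below 0 on both control and above 0 on all failing arrays, ordered by gap, each drawn as a line from its highest control value (dash) to its lowest failing value (point) in linear intensity, in red where the name ends in r. The 5 widest gaps are all red, those of CST3 (8570) and TIMP3 (2733) among them. The gaps rest on values below 0 and on different probes, so their order is not read as a result.

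In the fit of failing against control over 2301 probe sets bright enough to be tested (limma, with Benjamini-Hochberg adjustment), 2 probe sets (0.0869%) passed the threshold as higher in failing myocardium and 0 (0%) as lower. At an unadjusted p under 0.05 the fit held 141 higher and 77 lower probe sets, or 64.7% higher, a share that was 44.7% with the arrays scaled by their 75th percentile. All 3 probe sets of CST3 and TIMP3 were bright enough to be tested, those ending in r through their failing arrays alone. The 2 that passed were HSPD4314_r_at of CST3 and the unnamed HSPD20902_r_at, and HSPD4314_f_at and the TIMP3 probe set did not pass. Because CST3 was chosen on this outcome, its pass adds no evidence. HSPD20902_r_at also read below 0 in control, with −3773 and −1340. The floor made the control values of each passing set equal, so their p-values hold no spread between control arrays. The number of passing probe sets was 0 without control 1a, without failing 1a, without failing 1b and with failing 1a and 1b averaged, 3 without control 2a and 21 without failing 2a. It was also 0 when an inverse hyperbolic sine, which keeps values below 0, replaced the floor.

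**Figure D3:**
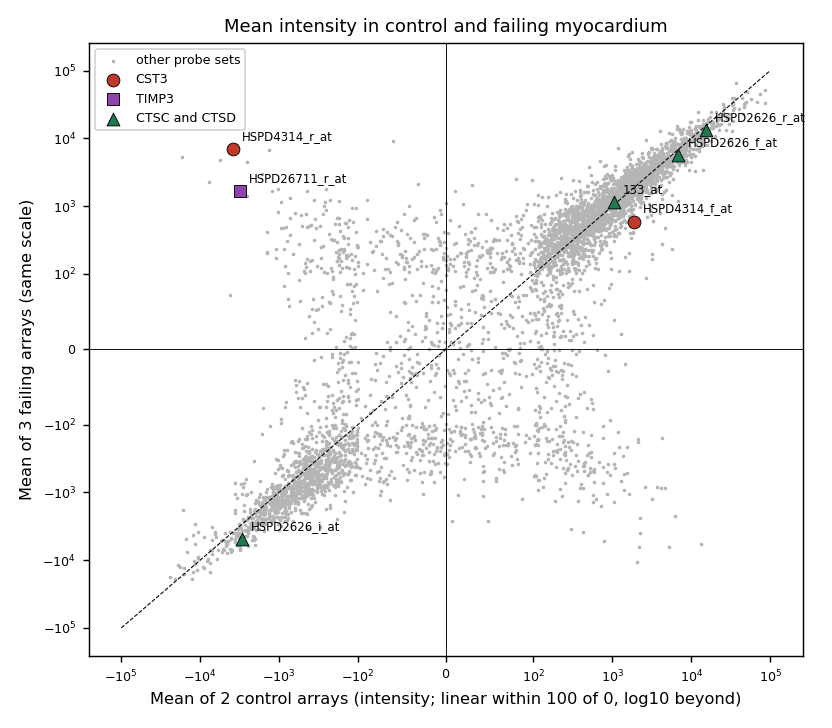
Mean intensity on the 3 failing arrays against that on the 2 control arrays for 4601 probe sets, on axes linear within 100 of 0 and log10 beyond, with the line of equality dashed. CST3 HSPD4314_r_at and TIMP3 lie in the upper left, below 0 in control and above 0 in failing myocardium, while CST3 HSPD4314_f_at and 3 of the 4 cathepsin probe sets are above 0 in both groups.

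Cathepsins, the lysosomal proteases that cystatin C restrains as far as they are cysteine proteases, served as the context for CST3. They had 4 probe sets for 2 genes, and 3 of these were tested. None passed (0 of 3 in limma, and 0 of 3 at an unadjusted p under 0.05). CTSC, a cysteine cathepsin that activates serine proteases of immune cells, read 1139 and 939 on control 1a and 2a and 974, 873 and 1632 on failing 1a, 1b and 2a. The groups overlapped, with failing 1b the lowest array and failing 2a the highest. Its log2 difference was 0.11 ± 0.43 (SE), a 1.08-fold difference (limma, adjusted p = 0.955), close to the median of all tested probe sets, 0.11, and it turned to −0.098 under quantile normalization and to −0.093 under scaling by the 75th percentile.

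CTSD encodes cathepsin D, an aspartic protease and thus not a target of cystatins, and had 3 probe sets. HSPD2626_f_at read 6676 and 7058 in control and 4120, 6202 and 6835 in failing myocardium, a log2 difference of −0.30 ± 0.27 (SE, limma, adjusted p = 0.798), or −0.40 relative to the median of all tested. Failing 2a overlapped the control arrays as deposited, and under quantile normalization, or with scaling by the 75th percentile, all failing arrays lay below both control arrays. HSPD2626_r_at read 15192 and 15045 in control and 8327, 9872 and 21100 in failing myocardium, −0.33 ± 0.42 (SE, limma, adjusted p = 0.845). Failing 1a and 1b were below both control arrays and failing 2a above them. HSPD2626_i_at was below 0 on all 5 arrays, with −2799 and −3124 in control and −4008, −3851 and −6665 in failing myocardium, so it gave no measurable level, although all failing arrays read below both control arrays. Unlike the 2 CST3 sets, the 2 measured CTSD sets had differences of the same sign, and neither was larger than the spread between arrays.

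**Figure D4:**
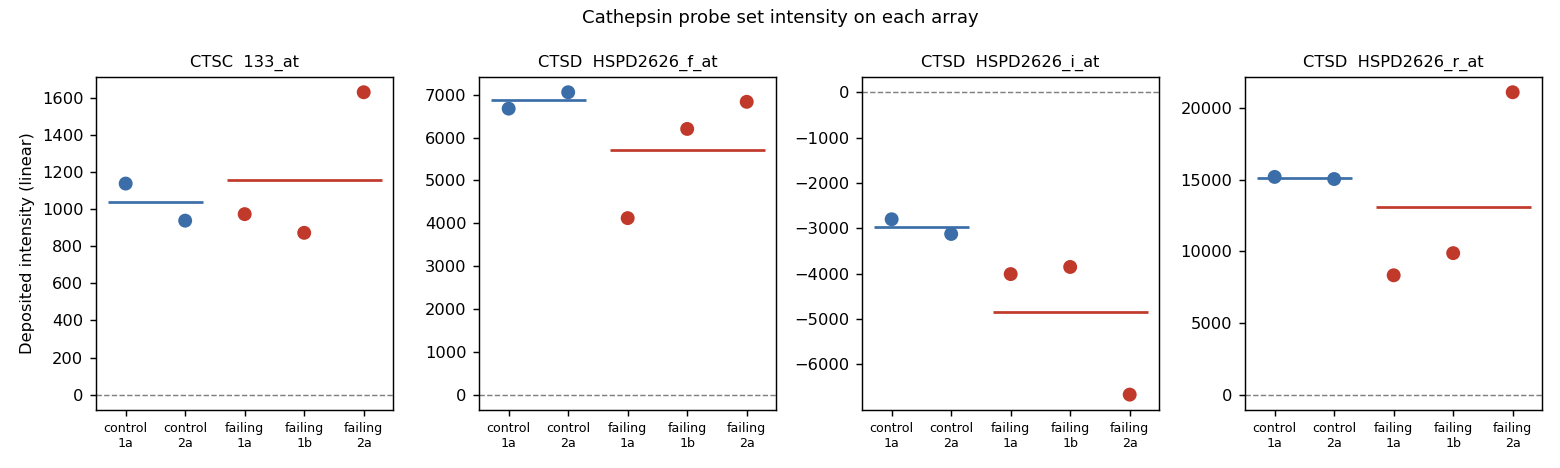
Linear intensity of the 4 cathepsin probe sets on each array, with blue points for control, red points for failing, lines for group means and a dashed line at 0. In the 3 sets above 0 the groups overlap, and failing 2a lies highest of the failing arrays in each of them.

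A fixed list held 15 other genes of the cystatin family or of cysteine protease inhibitors. Of these, 3 had probe sets, and 0 of the 2 that were tested passed. CSTB, an intracellular cystatin, read 611 and 767 in control and 743, 205 and −43.8 in failing myocardium, with overlapping groups (log2 difference −2.24 ± 1.64 SE on floored values). CSTA, a cystatin of epithelia and leukocytes, was too dim to be tested, with −61.4 and −147 in control and 100.2, −33.6 and 741 in failing myocardium. AHSG, the plasma glycoprotein fetuin-A of the cystatin superfamily, read 984 and 527 in control and 795, 563 and 996 in failing myocardium, a log2 difference of 0.09 ± 0.53 (SE). Legumain, LGMN, the other kind of protease that cystatin C blocks, was below 0 on all arrays, with −186 and −112 in control and −930, −796 and −2312 in failing myocardium. From the list of cystatins and inhibitors, 1 of the 3 genes, CSTA, had all failing values above control and none had all below. Over all probe sets the shares were 13.1% and 13.4%. Subunits of calpains, cysteine proteases of the cytosol, are on the same list as legumain. Of CAPN3 and CAPNS1, 5 probe sets were tested and 0 passed. The muscle calpain CAPN3 had the largest statistic of them with HSPD4808_s_at, which read 2518 and 3029 in control and 2110, 1434 and 1570 in failing myocardium (−0.72 ± 0.30 SE, 0.609-fold). Its other sets HSPD4808_i_at and HSPD4808_r_at overlapped between the groups.

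For TIMP3, the fixed lists held the 3 other TIMP genes, all genes with an MMP prefix and the binding partners KDR, AGTR2 and EFEMP1, and 0 of these had a probe set with a single symbol among those used here. From the ADAM and ADAMTS proteases 2 genes had a probe set each, and neither was bright enough to be tested. ADAM10, a membrane protease that TIMP3 can block, read 463 and −207 in control and 8.31, 251 and 98.7 in failing myocardium, with overlapping groups. ADAM15 was below 0 on all arrays, between −1448 and −1049. The proteases that TIMP3 acts on were therefore not measured at a usable level.

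Among serpins and other protease inhibitors, 8 genes had 11 probe sets, of which 6 were tested and 0 passed. Their median log2 difference was −0.0065 beside 0.11 over all tested probe sets. Of the 11, 2 lay above and 1 below control on all failing arrays, beside 13.1% and 13.4% of all probe sets. SERPINA3, an acute-phase inhibitor of chymotrypsin-like proteases, read 2348 and 2459 in control and 2406, 2796 and −26.5 in failing myocardium, so failing 2a alone was low. SERPINF1, the pigment epithelium-derived factor, was likewise lowest on failing 2a at HSPD3683_r_at, with 4315 and 3811 in control and 6371, 2206 and −6217 in failing myocardium. SERPINF2, the plasmin inhibitor alpha-2-antiplasmin, had −0.21 ± 0.24 (SE) at HSPD12142_s_at and 0.24 ± 0.33 at HSPD12142_r_at. Of 42 other lysosomal proteins listed, 12 had 17 probe sets, of which 9 were tested and 0 passed, with a median of 0.36. CD63, a membrane protein of late endosomes, read 1603 and 1359 in control and 1970, 1732 and 2495 in failing myocardium at HSPD2228_g_at (0.47 ± 0.30 SE), while its brighter set HSPD2228_at overlapped between the groups. The lysosomal enzyme gene PPT1 had 1.33 ± 1.10 and the cholesterol carrier gene NPC2 1.07 ± 1.06 (SE), both with overlapping groups, while the other NPC2 set, HSPD28581_at, went from 249 and 232 in control to 489, 66.2 and −609 in failing myocardium.

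The intensities of HSPD4314_r_at of CST3 and of the TIMP3 probe set had a Pearson correlation of 0.978 over the 5 arrays, and both had their lowest failing value on failing 1b. HSPD4314_f_at of CST3 had −0.84 with HSPD4314_r_at and −0.73 with TIMP3. Among 1890 tested probe sets of other genes, the 5 most like HSPD4314_r_at belonged to CHRNB1 (r = 0.999), ETFB (0.998), EIF4G2 (0.998), MAP2K6 (0.992) and LAGE3 (0.992). CHRNB1 read −657 and −785 in control and 1504, 967 and 1536 in failing myocardium, with the same order of failing arrays. Most like TIMP3 among 1891 were NDUFS1 (r = 0.998), CHRNB1 (0.982), CST3 at HSPD4314_r_at (0.978), PPP1CA (0.978) and IFITM1 (0.973). Most like HSPD4314_f_at were RPL22 (r = 0.991), RPS6 (0.983), NDUFA7 (0.983), PPP2R1A (0.981) and RPL21 (0.980), each highest on control 1a and lowest on failing 2a. A correlation of 0.95 or above was reached by 29 probe sets for HSPD4314_r_at, 15 for HSPD4314_f_at and 11 for TIMP3, and a negative correlation of at least that size by 32, 38 and 19. These correlations are descriptions over arrays that share a group difference. HSPD4314_r_at and the TIMP3 set belong to genes chosen for such a difference, so a high correlation between them was largely built in and adds no evidence. Their control values, which give no level, enter the correlations too.

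**Figure D5:**
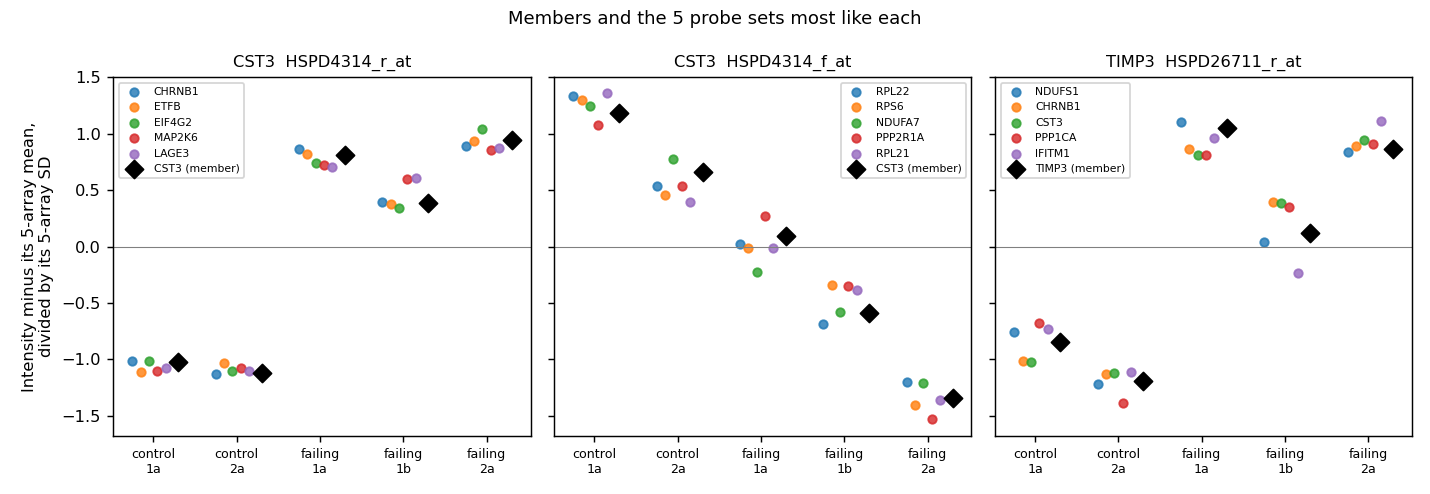
Intensities of each CST3 or TIMP3 probe set (black diamonds) and of the 5 probe sets most like it (coloured points), each shown as its distance from its own mean over the 5 arrays in units of its SD. In the left and right panels failing 1b is the lowest of the failing arrays in every set, and in the middle panel all sets are highest on control 1a and lowest on failing 2a.

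The arrays shared a trimmed mean of 800 each, but failing 2a stood apart from the other 4 (r of 0.511 to 0.533 across tested probe sets, against 0.798 between failing 1a and 1b and 0.777 between the control arrays). On failing 2a the 75th percentile was 1419, against 1017 to 1100 on the other arrays. Of its values 39.9% were below 0, against 34.7% to 35.9% on the others. Other measures were compared with the groups. The 3′ to 5′ ratio of the GAPDH control probe sets was 2.15 and 2.32 in control and between 1.32 and 1.44 in failing myocardium. That of actin overlapped, with 0.0899 and 0.108 in control and 0.192, 0.0873 and 0.205 on failing 1a, 1b and 2a. Both ratios come from human control probe sets read with dog RNA, and how far they report RNA quality here was not tested. The heart muscle markers, with probe sets for 8 of 12 genes, had summed intensities (values below 0 counted as 0) of 143111 to 150546 in control and 107342 to 118701 in failing myocardium, so the labelled tissue was borne out. Bright sets of MYH6, MYL3 and MB, each lower on all failing arrays, weigh most in these sums. Of the 12 sets, 3 lay below and 2 above control on all failing arrays, beside 13.4% and 13.1% of all probe sets. The fibroblast markers, with 8 of 9 genes, had sums of 9055 to 11205 in control and 13486 to 16361 in failing myocardium. Of their 13 sets, 2 lay above and 0 below control on all failing arrays, beside 13.1% and 13.4% of all probe sets. The macrophage markers, with 5 of 10 genes, overlapped, with 2946 to 4270 in control and 2944 to 6819 in failing myocardium. CD163, AIF1 and C1QB were not above an intensity of 20 on any array. Of the 9 macrophage sets, 1 lay above and 3 below control on all failing arrays. The endothelial sums (8 of 10 genes) overlapped as well, with 10759 to 15255 and 9505 to 16864, and so did the smooth muscle sums (5 of 7 genes), with 4685 to 4871 and 4327 to 6206. The endothelial sums include the bright set HSPD34099_r_at of ENG, which was lower on all failing arrays. By sets, 5 of 11 endothelial ones lay above and 1 below control on all failing arrays, beside 13.1% and 13.4% of all probe sets. Their median log2 difference was 0.88 over the 8 tested. Of the 7 smooth muscle sets, 1 lay above and 2 below control on all failing arrays. The part of RNA quality and of cell makeup in the CST3 and TIMP3 readings was not tested, and in bulk tissue fewer cells of a type and less RNA per cell cannot be told apart.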

How the data were processed

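The authors' deposited table holds linear intensities, 1 for each probe set on each array, with no protocol, scanner software or normalization given in the sources used here. The values show a shared scale, a mean of 800 on every array after removal of 2% of probe sets at each end, and many values below 0. Of 4653 probe sets, 52 array controls were left out. Of the other 4601, 3724 had 1 gene symbol in the platform annotation, 72 several and 805 none. Columns of other samples numbered 0.

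Values under a floor of 20 were set to it, and log2 was taken. The 2301 probe sets whose mean reached the median (7.13, or 140.1 in intensity) were compared between groups by limma 3.58.1 under R 4.3.3 (eBayes with intensity trend), two-sided, with Benjamini-Hochberg adjustment over all of them and a threshold of 0.05. The fit ran on probe sets, not genes, because sets of a gene disagreed. It was tested on simulated data. The members and lists were chosen with earlier results of these data known. Named were all CST3, TIMP3 and cathepsin (CTS prefix) sets, up to 3 tested sets per other list by moderated statistic, from which a part is described, and the 5 sets most like each member by Pearson correlation. An exact permutation test of 2 arrays against 3 cannot go below p = 0.2, and the number of arrays limits the precision.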

Additional observations from a re-analysis of the deposited data

How the results depend on the processing

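The count of passing probe sets, 2, depended on the settings. It was 4 with a floor of 100, 6 without the filter on dim probe sets, 6 without the intensity trend, 1 with a single probe set per gene, 0 with the inverse hyperbolic sine, 0 with failing 1a and 1b averaged and 0 with the replicate number (1 or 2) as a block. It stayed at 2 with a floor of 5, quantile normalization or 75th percentile scaling. Leaving out 1 array gave 0 to 21, and where that left a lone control array it was assumed to vary like the others. The count of cathepsin sets that passed was 0 under every alternative run. The 1220 probe sets whose groups did not overlap became 455 with a single probe set per gene, where only 1449 were counted, and 1731 to 2198 with 1 array left out, where fewer arrays make separation easier. The difference of CTSC, 0.11, turned to −0.098 with quantile normalization and −0.093 with 75th percentile scaling, and ranged from −0.17 (without failing 2a) to 0.29 (without failing 1b) with 1 array left out, being below 0 without control 2a too (−0.030), and the cause was not tested. For HSPD4314_r_at of CST3 and for TIMP3 the direction was fixed by the choice of the genes, so its persistence says nothing about stability. HSPD4314_f_at came in by its gene symbol. Its groups do not overlap, so leaving out an array could not turn its direction, and its persistence there is not read either. Same-numbered arrays of the 2 groups hardly deviated together (correlation 0.04 across probe sets), and the labels do not say that the numbers mark shared material, so the block is no paired analysis of known pairs. The CST3 and TIMP3 readings are limited by the control values of both sets ending in r, which were below 0 and give no level. Why they lay so far below 0 was not tested.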
